A study of Mus musculus with 2 samples.

Results

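The aminoacyl-tRNA synthetases, the enzymes that join each amino acid to its transfer RNA, were examined in macrophage-like cells given an LXR and an RXR ligand. The set was chosen by gene name: 36 genes, 20 for enzymes of the cytosol and 16 for enzymes of the mitochondrion. Of these, 35 had a probe set that names a single gene, out of 18193 genes so represented, and Dars, for aspartate, was not analysed here. RNA came from RAW264.7 cells, a mouse macrophage-like line, that stably expressed murine LXRα after chemical transfection. Both groups carried the introduced receptor, and no untransfected cells were analysed here. In the ligand group the cells had received the LXR agonist GW3965 at 1 µM together with the RXR agonist LG268 at 100 nM for 24 h. In the control group they had received DMSO, the solvent, for 24 h. Each group was 1 Affymetrix mouse array, so nothing here is replicated, no p-value can be given, and each fold sets 1 culture beside another.

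Each synthetase activates its amino acid with ATP and transfers it to the matching tRNA, which then enters the ribosome. The cytosol and the mitochondrion translate separately and mostly use enzymes from different nuclear genes, whose mitochondrial forms carry a 2 at the end of the symbol. In mammals a group of cytosolic synthetases is held with 3 scaffold proteins in a multi-synthetase complex, and the rest act outside it. Many cytosolic synthetase genes are known targets of ATF4, the transcription factor that raises amino acid supply genes when eIF2α is phosphorylated. LXR and RXR are nuclear receptors that act as partners and are best known in macrophages for cholesterol export.

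The deposited MAS5 signals had medians of 272.1 on the ligand array and 282.5 on the DMSO array. A gene was measured where its brighter signal exceeded a floor of 276.4, which 11077 genes did, and it was read from its brightest probe set. All 10 macrophage markers, including Csf1r, the receptor for the growth factor CSF1, were above the floor on both arrays, with log2 ratios from -0.27 to 1.02 and summed signals of 634824 with the ligands and 583100 with DMSO. None of 5 lymphocyte, 4 fibroblast and 4 epithelial markers was measured. Of 4 granulocyte and 3 endothelial markers, 2 and 1 were measured, each above the floor on 1 array only. Abca1, the LXR-responsive cholesterol exporter, had a signal of 81159 with the ligands and 2989 with DMSO, which was 27.2-fold higher, and its relative Abcg1 was 3.75-fold higher. Probe sets of the same gene gave the one available measure of error. Their SD on the log2 ratio was 0.28 over 4866 genes, and 0.16 over 1253 genes with both probe sets above 5000 on both arrays. It does not cover variation between cultures.

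Most cytosolic synthetases were slightly lower with the ligands. All 19 had signals above the floor on both arrays, from 6886 to 53197 with the ligands and from 6592 to 55147 with DMSO. Of these, 16 had a negative log2 ratio (ligands over DMSO) and 3 a positive one, where 53.8% of all measured genes were negative and 46.2% positive. Of the 4681 genes with a signal above 5000, where all cytosolic members lie, 56% were negative and 44% positive. Counted by probe set, 33 of 40 were lower with the ligands, where 52.7% of all measured probe sets were. The median log2 ratio over the genes was -0.22, a 1.17-fold lower signal, against -0.03 over all measured genes. At 1.5-fold, 1 member was lower and none was higher, where 4.77% and 6.36% of measured genes were, and 1.9% and 4.12% of the brighter ones. No member was 2-fold lower or higher, where 0.776% and 1.67% of measured genes were. With a smaller threshold, 5 members were at least 20% lower and 2 at least 25% higher, where the shares were 15.5% and 15.7% of measured genes and 10.5% and 11.1% of the brighter ones. In RNA from a whole culture, a lower level in every cell and fewer cells transcribing a gene cannot be told apart.

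**Figure D1:**
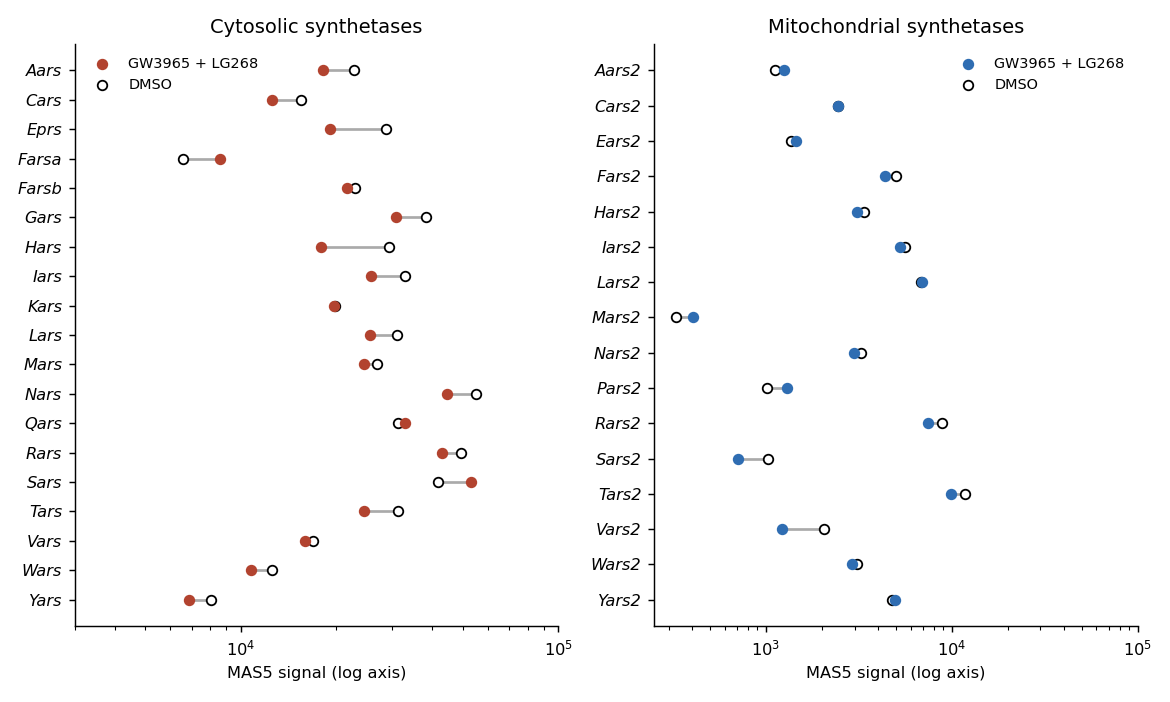
MAS5 signals (log axis) of the brightest probe set of each synthetase on the ligand array (filled) and on the DMSO array (open), cytosolic enzymes on the left and mitochondrial enzymes on the right. The ligand point lies left of the DMSO point for 16 of 19 cytosolic and 9 of 16 mitochondrial genes. Positions of different genes along the axis are not comparable, since each probe set has its own brightness.

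The cytosolic member furthest below 0 was Hars, which charges histidine. Its signal was 17929 with the ligands and 29227 with DMSO, a log2 ratio of -0.70 (1.63-fold lower). Its other probe set read 9270.5 with the ligands and 10745 with DMSO, a log2 ratio of -0.21. Both probe sets were lower on the ligand array, but their log2 ratios differed by more than the probe set SD. Eprs followed, the fused enzyme that charges both glutamate and proline, with 19106 with the ligands against 28567 with DMSO (log2 ratio -0.58), just short of 1.5-fold lower. Its 4 probe sets all lay below 0, from -0.58 to -0.16.

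Among the other members of the multi-synthetase complex, Iars, for isoleucine, was at 25613 with the ligands and 32977 with DMSO (log2 ratio -0.36, with a second probe set at -0.47). Lars, for leucine, was at 25459 with the ligands and 30991 with DMSO (log2 ratio -0.28), from its only probe set. The remaining 4 differed less than either, with Rars, for arginine, at 42859.5 with the ligands and 49195 with DMSO. Mars, for methionine, had a signal of 24357.5 with the ligands against 26934 with DMSO. Kars, whose transcripts supply lysyl-tRNA synthetase to both compartments, read 19654 with the ligands and 19838 with DMSO. Those 3 had log2 ratios of -0.20, -0.15 and -0.01. Qars, for glutamine, was the complex member with a positive log2 ratio, 0.07 (32806 with the ligands and 31199.9 with DMSO). Its 4 probe sets did not share a direction and ran from -0.59 to 0.11. Over the 7 measured enzymes of the complex the median log2 ratio was -0.20, and over the 12 cytosolic enzymes outside it -0.26.

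Of the complex's 3 scaffold genes, 1 had a negative log2 ratio. Aimp1, whose product binds several synthetases and is also secreted, had 26524 with the ligands and 27815 with DMSO, a log2 ratio of -0.07. Eef1e1, also called AIMP3, had 27200.0 with the ligands and 26415 with DMSO, a log2 ratio of 0.04. Aimp2 had 24736 with the ligands and 19680 with DMSO, a log2 ratio of 0.33, but its other probe set was at 0.00.

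Outside the complex, several enzymes sat close together near -0.3. Aars, for alanine, was at 18155 with the ligands and 22761 with DMSO, with log2 ratios of -0.33 and -0.44 from its 2 probe sets. Tars, for threonine, had 24462 with the ligands and 31322 with DMSO (log2 ratio -0.36). Gars, which supplies glycyl-tRNA synthetase to the cytosol and the mitochondrion, had 30821.5 with the ligands against 38162 with DMSO (log2 ratio -0.31). These 3 were lower on the ligand array by 1.24-fold to 1.28-fold. Nars, for asparagine, read 44729.7 with the ligands and 55147 with DMSO, and its 2 probe sets gave log2 ratios of -0.30 and -0.35. Cars, for cysteine, read 12523 with the ligands and 15427 with DMSO (log2 ratio -0.30).

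Wars and Yars, for tryptophan and tyrosine, were lower by less than the wider probe set SD. Wars, which interferon γ is known to induce, had 10788 with the ligands and 12566 with DMSO (log2 ratio -0.22), and its 4 probe sets spanned -0.27 to -0.07. Yars had 6886 with the ligands and 8047 with DMSO (log2 ratio -0.22). Vars, for valine, was nearly level, with 15877 with the ligands and 16889 with DMSO (log2 ratio -0.09). Over the cytosolic set, 12 members were lower and 2 higher by more than 0.16, the SD of bright probe sets. By more than 0.28, 8 were lower and 2 higher. The shares of all genes past these cut-offs were not computed, so the counts have no background beside them. The quartiles of the log2 ratio were -0.32 and -0.08 for the cytosolic members, and -0.19 and 0.13 for genes with a signal above 5000.

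Sars, for serine, was the clear exception. It had a signal of 53197 with the ligands and 41729 with DMSO, a log2 ratio of 0.35 (1.27-fold higher). Its second probe set had 44803 with the ligands and 33414 with DMSO, a log2 ratio of 0.42. It was the only cytosolic member with 2 or more probe sets whose probe sets were all higher, while 7 such members had all of theirs lower and 3 were mixed. The same count was not made over all genes, of whose measured probe sets 52.7% were lower.

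The 2 subunits of phenylalanyl-tRNA synthetase, which form 1 enzyme, had log2 ratios of opposite sign. Farsa, the catalytic α subunit, had 8607 with the ligands and 6592 with DMSO, a log2 ratio of 0.38. Farsb, the β subunit, had 21622 with the ligands and 22857 with DMSO, a log2 ratio of -0.08. Neither direction was shared by all probe sets. The 4 probe sets of Farsa ran from -0.93 to 0.78, the 3 besides the brightest with signals of at most 537 on either array, and the 4 of Farsb from -0.61 to 0.05.

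**Figure D2:**
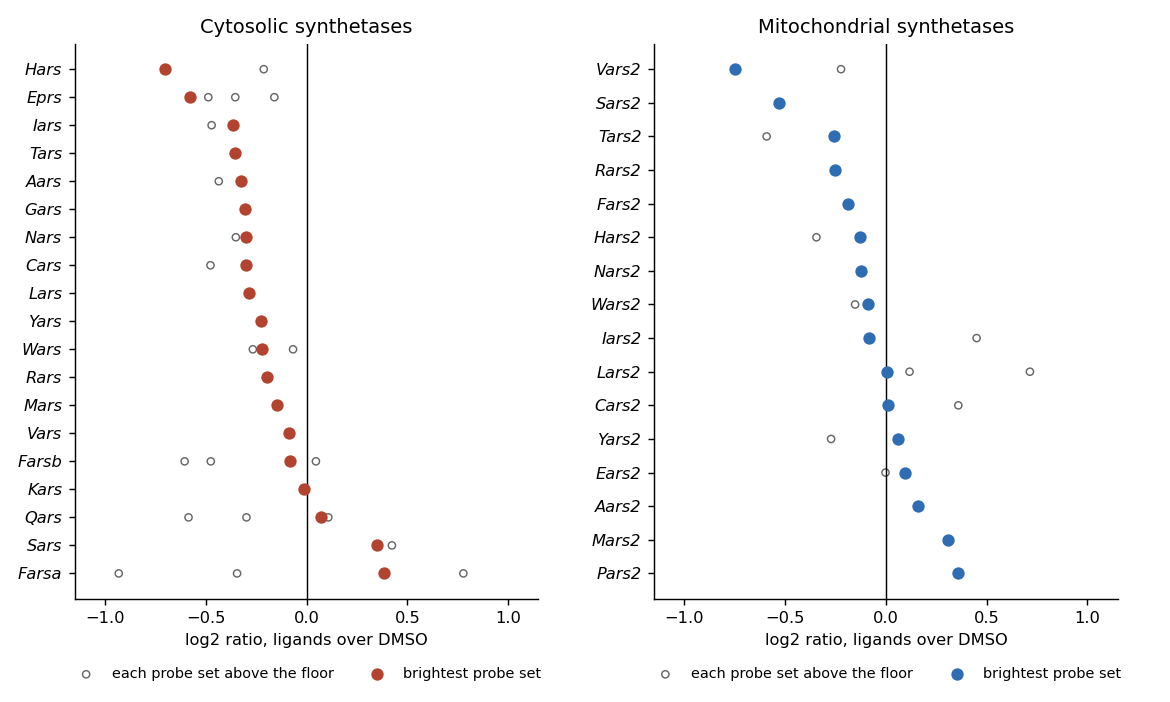
Log2 ratios (ligands over DMSO) of the synthetase genes, ordered by the brightest probe set (filled), with every other probe set above the floor as an open circle. Sars has both probe sets above 0, Hars and Eprs have all of theirs below 0, and Farsa, Farsb and Qars have probe sets on both sides of 0.

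The 12 cytosolic genes known as ATF4 targets had a lower median than the other cytosolic genes. Of the 12, 11 had negative log2 ratios, with Sars as the exception. Of all measured genes 53.8% were negative, and of those above 5000, 56%. The median of the 12 was -0.30. The 7 other measured cytosolic genes had a median of -0.08, with 5 negative, and included both extremes of the cytosolic set, Hars at -0.70 and Farsa at 0.38. The median of the 7 was -0.18 with each gene's probe sets averaged and -0.01 without those ending in _s_at or _x_at, where that of the 12 was -0.32 and -0.29. Sorted by protein fold, the 9 cytosolic class I enzymes, whose catalytic core is a Rossmann fold, had a median of -0.22. The 9 class II enzymes had a median of -0.30 and a wider range, from -0.70 to 0.38, against -0.36 to 0.07 in class I.

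Promoter sequence was examined because ATF4 is known to bind, with a C/EBP partner, elements of the form TGATGNAA. Sequences came from RefSeq (GRCm38.p6) as windows of 250 bases before to 50 bases after each gene's start, and 26 members had a window, 12 cytosolic and 14 mitochondrial. TGATGNAA, sought on both strands, was in the windows of Aars, Gars, Iars, Tars and Yars, 5 of the 12 cytosolic genes, and in none of the 14 mitochondrial ones, where 3.97% of all 32851 windows held it. TTGCATCA, whose reverse complement is a case of TGATGNAA, was in 4 of the 12 windows, all except that of Gars among these 5 genes, and in 0.895% of all windows. The E-box CACGTG was in the cytosolic windows of Aars, Farsb, Iars and Tars and the mitochondrial window of Ears2, and in 7.15% of all windows. These matches describe letters and not bound sites.

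The windows that carry the element before the start are shown with that of Sars, which has none, as an example of a higher member, chosen because both of its probe sets were higher. Farsa and Qars, also higher by the brightest probe set, had a window without the element too. Each run is the 250 bases before the start, 5′ to 3′ on the gene's strand, with TGATGNAA or its reverse complement in capitals.
Aars, chr8:111033592-111033841, + strand: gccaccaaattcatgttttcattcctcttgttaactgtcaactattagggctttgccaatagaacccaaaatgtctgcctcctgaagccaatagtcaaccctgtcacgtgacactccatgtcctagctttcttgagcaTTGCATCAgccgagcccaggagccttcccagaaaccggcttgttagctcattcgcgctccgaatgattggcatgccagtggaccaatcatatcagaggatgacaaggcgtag
Gars, chr6:55037751-55038000, + strand: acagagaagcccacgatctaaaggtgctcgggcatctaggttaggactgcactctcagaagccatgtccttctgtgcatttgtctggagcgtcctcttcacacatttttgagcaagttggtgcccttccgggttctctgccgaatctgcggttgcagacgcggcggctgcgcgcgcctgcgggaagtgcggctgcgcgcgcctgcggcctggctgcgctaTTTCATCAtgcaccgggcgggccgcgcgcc
Tars, chr15:11399659-11399908, - strand: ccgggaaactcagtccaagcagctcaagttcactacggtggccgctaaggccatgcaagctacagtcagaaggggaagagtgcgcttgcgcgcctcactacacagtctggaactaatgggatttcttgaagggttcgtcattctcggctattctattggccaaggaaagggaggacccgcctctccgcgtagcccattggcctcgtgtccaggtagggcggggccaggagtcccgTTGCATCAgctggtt
Sars, chr3:108445260-108445509, - strand: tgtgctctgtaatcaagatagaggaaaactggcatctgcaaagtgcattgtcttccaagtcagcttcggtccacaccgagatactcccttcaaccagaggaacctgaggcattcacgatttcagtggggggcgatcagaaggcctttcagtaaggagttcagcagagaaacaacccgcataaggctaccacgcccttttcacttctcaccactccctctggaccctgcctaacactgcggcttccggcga
In Iars and Yars the element lay just after the start, and 30 bases around it are shown.
Iars, chr13:49682126-49682155, + strand: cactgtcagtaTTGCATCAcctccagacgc
Yars, chr4:129189895-129189924, + strand: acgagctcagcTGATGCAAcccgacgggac
Counted from the start, the first capital lies at -112 in Aars, -30 in Gars, -15 in Tars, 8 in Iars and 4 in Yars. A second match in Aars, at 10, is not shown.

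The 5 genes holding the element were all lower with the ligands, where 53.8% of measured genes were. The 5 lay within a narrow span of log2 ratios from -0.36 to -0.22, with a median of -0.33. All 5 are among the 12 ATF4 targets, of which 8 had a window, so this grouping is not separate from that one. The 7 cytosolic genes with a window but no match had a median of -0.01 and spanned -0.58 (Eprs) to 0.38 (Farsa), with 4 negative. Among them, Eprs and Sars (0.35) are ATF4 targets too. No match in these 300 bases says nothing of elements elsewhere, and the genes were not chosen independently of earlier results of these arrays.

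The mitochondrial synthetases were closer to the array as a whole. All 16 had a probe set above the floor on both arrays, with signals from 406 to 9849.7 with the ligands and from 328 to 11772 with DMSO. Of the 16, 9 had negative and 7 positive log2 ratios, where 53.8% and 46.2% of measured genes did. The median was -0.08, against -0.03 over all measured genes. At 1.5-fold, 1 was lower and none higher, where 4.77% and 6.36% of measured genes were. With the smaller threshold, 2 were at least 20% lower and 1 at least 25% higher, where 15.5% and 15.7% of measured genes were. These counts are near the shares of the array as a whole. The SD among the members' log2 ratios was 0.28, and it was 0.27 among cytosolic members, whose signals lie in the range where the probe set SD was 0.16.

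The lowest was Vars2, for valine, at 1216 with the ligands and 2042 with DMSO (log2 ratio -0.75, 1.68-fold lower). Its second probe set was also lower but by less, at -0.22 (1211 with the ligands and 1413 with DMSO). Sars2, for serine, had 710.4 with the ligands and 1025 with DMSO, a log2 ratio of -0.53 from its only probe set. Tars2, for threonine, was lower in both probe sets, with 9849.7 with the ligands and 11772 with DMSO in the brighter (log2 ratio -0.26) and a log2 ratio of -0.59 in the other. Rars2, for arginine, had 7478 with the ligands against 8903 with DMSO (log2 ratio -0.25), again from a single probe set. Hars2 and Wars2, for histidine and tryptophan, were lower in each of their 2 probe sets, from -0.34 to -0.09.

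Fars2 and Nars2, for phenylalanine and asparagine, had log2 ratios of -0.19 and -0.12. Their signals were 4387 with the ligands and 5005 with DMSO for Fars2, and 2985 with the ligands and 3252 with DMSO for Nars2. Iars2, for isoleucine, was nearly level at 5287 with the ligands and 5596 with DMSO (log2 ratio -0.08), and a dimmer probe set was at 0.45. Lars2, for leucine, differed least of all members, with 6893 with the ligands and 6861 with DMSO (log2 ratio 0.01), although its 2 dimmer probe sets were at 0.12 and 0.71. Cars2, for cysteine, read 2444 with the ligands and 2427 with DMSO (log2 ratio 0.01).

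The 3 mitochondrial members furthest above 0 were Pars2, Mars2 and Aars2. Pars2, for proline, had 1297 with the ligands and 1011 with DMSO (log2 ratio 0.36), and Mars2, for methionine, had 406 with the ligands and 328 with DMSO (log2 ratio 0.31), close to the floor. Aars2, for alanine, had 1252 with the ligands and 1123 with DMSO (log2 ratio 0.16). Each of these 3 log2 ratios rests on a single probe set above the floor. Ears2, for glutamate, read 1456 with the ligands and 1361 with DMSO (log2 ratio 0.10), and Yars2, for tyrosine, 4949 with the ligands and 4741 with DMSO (log2 ratio 0.06, with its other probe set at -0.27). The second probe set of Ears2 reached the floor with DMSO only.

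**Figure D3:**
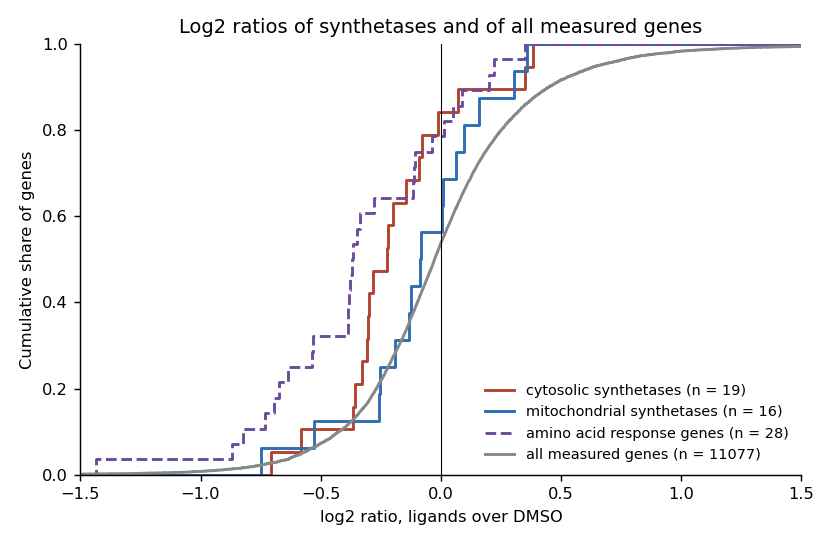
Cumulative share of genes (vertical axis) at or below each log2 ratio, ligands over DMSO (horizontal axis), for 19 cytosolic synthetases, 16 mitochondrial synthetases, 28 amino acid response genes and all 11077 measured genes. The cytosolic curve lies left of that of all genes through its middle, with a median of -0.22 against -0.03, and the mitochondrial curve, with a median of -0.08, runs nearer to it.

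The median log2 ratio was 0.14 lower for cytosolic than for mitochondrial enzymes (difference -0.14). For 13 amino acids the cytosolic and mitochondrial enzymes are named as a pair, and the cytosolic gene had the lower log2 ratio in 10 of them, with a median difference of -0.28. In 7 pairs both genes were negative, where 53.8% of measured genes were when taken singly. No share over pairs of other genes was computed, so the counts of 10 and 7 have no background beside them. The widest gap with the cytosolic gene lower was Hars against Hars2, at -0.57 (-0.70 and -0.13). It depended on the probe set. The dimmer probe sets, at -0.21 for Hars and -0.34 for Hars2, had the reverse order, and the averages over probe sets were -0.46 and -0.24. In 3 pairs the cytosolic gene had the higher log2 ratio. They were Sars against Sars2 (0.35 and -0.53, a difference of 0.88) and Vars against Vars2 (-0.09 and -0.75, a difference of 0.66). The last was Rars against Rars2 (-0.20 and -0.25). Serine was the only amino acid of the 13 whose cytosolic gene was positive and whose mitochondrial gene was negative. The fused cytosolic gene Eprs, at -0.58, stands beside Ears2 at 0.10 and Pars2 at 0.36. Phenylalanine, also outside the 13, ran the other way. Its cytosolic genes Farsa, at 0.38, and Farsb, at -0.08, both lay above Fars2 at -0.19.

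**Figure D4:**
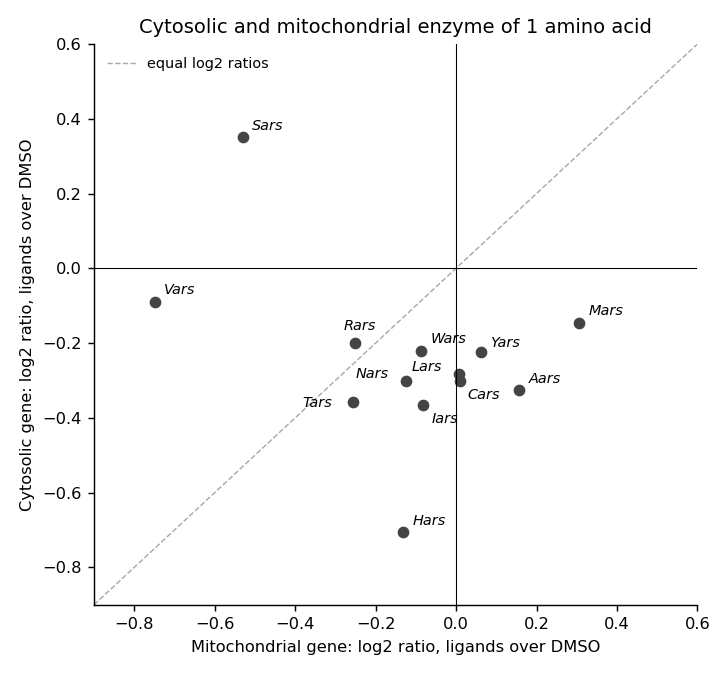
Log2 ratio (ligands over DMSO) of the cytosolic gene (vertical axis) against that of the mitochondrial gene (horizontal axis) for 13 amino acids, each point labelled with the cytosolic symbol. Points below the dashed line of equal log2 ratios have the cytosolic gene lower: 10 lie below it, and Sars, Vars and Rars lie above it.

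Other genes around tRNA charging showed smaller or mixed differences. Of 9 genes for tRNA export, trans-editing and selenocysteine charging, 7 had negative log2 ratios, where 53.8% of measured genes did, and the median was -0.13. Xpot, which exports tRNA from the nucleus, had 25930 with the ligands and 31790 with DMSO (log2 ratio -0.29), with all 3 of its probe sets between -0.35 and -0.28. Prorsd1, related to the editing domain of bacterial prolyl-tRNA synthetases, was at 0.50, Dtd1, which removes D-amino acids from tRNA, at -0.25 and Sepsecs, the last enzyme of selenocysteinyl-tRNA synthesis, at -0.20 with a second probe set at 0.42. None of the 9 reached 1.5-fold, where 4.77% of measured genes were that much lower and 6.36% that much higher. For 9 genes that is near the array as a whole.

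Of 28 measured genes for tRNA transcription and processing, 17 were negative, the median was -0.09, and 4 were at least 20% lower and none at least 25% higher. The shares of measured genes were 53.8% negative, 15.5% lower and 15.7% higher, so the negative and lower counts were near those of the array. The 4 were Tsen15, of the tRNA splicing endonuclease (log2 ratio -0.54), Pop4 and Rpp30, of ribonuclease P (-0.53 and -0.42), and Bdp1, of the RNA polymerase III factor TFIIIB (-0.33). Cytosolic elongation and release factors were nearly level, with 6 of 8 positive, where 46.2% of measured genes were, and a median of 0.07. Eef1d, a subunit of the exchange factor that reloads eEF1A with GTP, was at 0.26, Eif5a at 0.14 and Eef1b2 at 0.07. Eef2k, the kinase that inhibits the elongation factor eEF2, was 1.88-fold higher (1713 with the ligands and 912 with DMSO, log2 ratio 0.91), but its 3 probe sets ran from -0.70 to 0.91.

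Mitochondrial tRNA and translation factors had a median of -0.16, with 13 of 18 negative, 5 at least 20% lower and 3 at least 25% higher, where the shares of measured genes were 53.8%, 15.5% and 15.7%. Trnt1, which adds the CCA end to tRNAs, was 1.69-fold lower (3823 with the ligands and 6459 with DMSO), though its other probe set was at 0.07. Elac2, which trims tRNA 3′ ends, had a log2 ratio of -0.59, with its 3 probe sets from -0.59 to 0.00, and Gtpbp3, which modifies the wobble base of mitochondrial tRNAs, 0.65. Tufm, the mitochondrial factor that carries charged tRNA to the ribosome, was at 0.52 with probe sets down to -0.31. Qrsl1, Gatb and Gatc, which together make mitochondrial glutaminyl-tRNA in place of a synthetase, were all negative, at -0.50, -0.14 and -0.12. These last 3 were named after their values were seen.

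The amino acid response genes that are not synthetases had the lowest median of the lists, -0.37. Of 28 measured, 22 were negative, 17 were at least 20% lower and 1 at least 25% higher, and 7 were at least 1.5-fold lower and none higher. Of all measured genes, 53.8% were negative, 15.5% and 15.7% passed the smaller threshold downward and upward, and 4.77% and 6.36% passed 1.5-fold. Cth, which makes cysteine from cystathionine, was 2.70-fold lower (1288 with the ligands and 3483 with DMSO), from a single probe set. Aldh18a1, the first enzyme of proline synthesis from glutamate, was at -0.82, with probe sets from -0.82 to 0.11. Slc7a11, the cystine transporter, was at -0.87, with a second probe set at -0.09, and the pseudokinase Trib3 at -0.73. Atf4 itself, named after its value was seen, had 54138 with the ligands and 69962 with DMSO (log2 ratio -0.37), and its second probe set was at -0.49. Of this list, 25 genes had a promoter window and 7 of them held TGATGNAA, where 3.97% of all windows did. The 6 of the 7 that were measured had a median log2 ratio of -0.67, with 5 negative. They ran from -0.87 (Slc7a11) to 0.35 (Atf3).

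**Figure D5:**
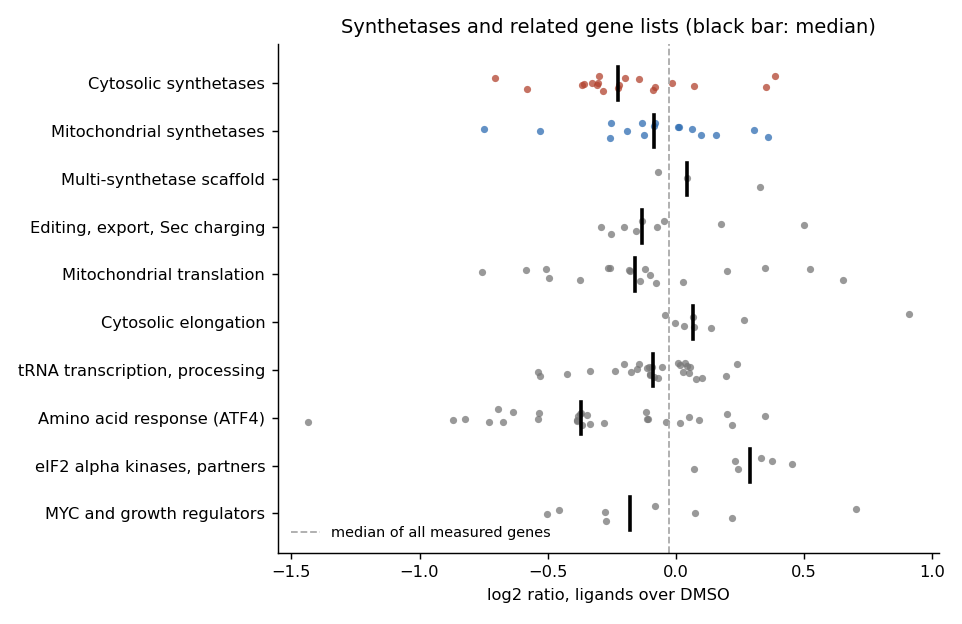
Log2 ratios (ligands over DMSO, horizontal axis) of the measured genes of each list, 1 point per gene and a black bar at the median, with the median of all measured genes as a dashed line. The amino acid response genes have the lowest median, -0.37, followed by the cytosolic synthetases at -0.22, and the eIF2α kinases and partners the highest, 0.29.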

How the data were processed

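RNA from the 2 cultures was hybridised to 1 Affymetrix mouse array each. The deposited values are linear intensities, 1 per probe set. Per the submitters' processing notes they are MAS5 signals, of a version not given in the sources used here. Scaling to 1 trimmed mean was read from the values, whose trimmed mean was 2500 on both arrays, and not from the sources. It makes a ratio relative to the bulk of the array. No further normalization was applied. MAS5 detection calls were not used here.

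Of 45101 probe sets, 34945 named 1 gene through the platform annotation. Of these, 34741 were matched to a gene of GRCm38.p6 and took its symbol there, whether or not it differed. Signals below a floor, the median (276.4) of the signals of all probe sets other than controls, were set to it. This floor replaced, after the data were seen, the median over probe sets naming 1 gene that the design had meant, and the closing section gives the results with that one. Each gene was read from the brightest of its probe sets by mean log2 signal, and its log2 ratio was taken as ligands over DMSO. Higher and lower counts used 1.5-fold. The number of arrays limits the precision, and no p-value was computed. All members were named, and of each other list the 4 genes with the largest differences. Members and lists were chosen with earlier results of these data known. The background of genes above 5000 was added after the data were seen. Probe sets ending in _s_at or _x_at (14 of the members' 72) can detect several transcripts. The procedure was tested on simulated data, with planted changes larger than the difference of any member. That test does not show how well differences of the members' size are recovered. Python 3.11.15, numpy 2.4.6 and pandas 2.3.3 were used.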

Additional observations from a re-analysis of the deposited data

How the results depend on the processing

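The alternatives moved the floor to the 25th or 75th percentile, dropped it for log2(signal + 32), quantile normalized the arrays, centred them on the median, averaged a gene's probe sets, removed those ending in _s_at or _x_at, or required both arrays to exceed the floor. An added one, chosen after seeing the data, took the floor over probe sets naming 1 gene (406.5): Mars2 then fell below it, leaving 15 mitochondrial members, and the cytosolic and mitochondrial medians were -0.22 and -0.09. Over these 9 alternatives, the median log2 ratio of the cytosolic synthetases stayed between -0.28 and -0.20, that of the mitochondrial ones between -0.11 and -0.06, and their difference between -0.17 and -0.12. Not all of these could change a result. The lowest cytosolic signal, 6592, lay above the highest floor, 2186, so the alternatives that concern the floor alone could not change a cytosolic value. Centring could not change the difference. The median of the ATF4 targets stayed between -0.32 and -0.27, and that of the other cytosolic genes between -0.18 and -0.01. Counts at a fold threshold were small and less stable. Cytosolic members at least 1.5-fold lower numbered 1, but 2 after quantile normalization and 0 with probe sets averaged, with 5 at the 20% threshold and 0 at 2-fold. Mitochondrial members at least 1.5-fold lower numbered 1, but 0 with the floor at the 75th percentile, which left 10 of 16 measured, and 0 with probe sets averaged, with 2 at the 20% threshold and 0 at 2-fold. At the 25% threshold, 2 cytosolic members and 1 mitochondrial member were higher, against 0 and 0 at 1.5-fold. Of 308 recomputed values of single members, 2 moved by more than the probe set SD of 0.28: Eprs was at -0.16 without _s_at and _x_at probe sets, and Farsa at -0.03 with probe sets averaged. Many of the 308 could not move, so that count overstates stability. Every member was above the floor on both arrays, and 8 cytosolic and 4 mitochondrial members had a single probe set, with nothing to average. Under every alternative run, 14 cytosolic members stayed negative and 1, Sars, positive. Under every alternative in which they were measured, 8 mitochondrial members stayed negative and 5 positive. No paired analysis was possible because each group has 1 array. Signals near the floor, such as that of Mars2, are the least certain.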

Other observations

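Genes upstream of ATF4 had positive log2 ratios (ligands over DMSO) by the brightest probe set, but probe sets of the same gene often disagreed. All 6 measured genes among the eIF2α kinases and their partners were positive by that measure, with a median of 0.29, where 46.2% of measured genes were positive. Eif2ak3, which encodes the endoplasmic reticulum kinase PERK, had 5514 with the ligands and 4033 with DMSO (log2 ratio 0.45), and Eif2b5, of the exchange factor that phosphorylated eIF2 inhibits, was at 0.37, both from single probe sets. Eif2ak4, which encodes GCN2, the kinase that senses uncharged tRNA, was at 0.33, but another probe set was at -0.86. Eif2ak2, the kinase activated by double-stranded RNA, was at 0.24 with probe sets from -0.02 to 0.48. Eif2ak1 and Impact, named after their values were seen, also had probe sets on both sides of 0, down to -0.24 and -0.73, as did all 4 of these genes with more than 1 probe set.

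Of 8 measured growth regulators, 5 were negative and 3 positive, with a median of -0.18. The shares of measured genes were 53.8% and 46.2%, so these counts were near those of the array. Mycn had 203503 with the ligands and 193135 with DMSO (log2 ratio 0.08), while Myc was below the floor with the ligands (82.3) and above it with DMSO (379), at least 1.37-fold lower. Max, the partner of both, was 1.63-fold higher (8331 with the ligands and 5114 with DMSO). Rptor, of the mTORC1 kinase complex, was at -0.50 with a second probe set at 0.13, and the kinase Mtor at -0.28 in both probe sets. Mycn was named after its value was seen.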
